A study of Mus musculus with 6 samples.

Results

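The genes described here encode the subunits of the proteasome and the proteins that assemble, activate or inhibit it. They were chosen by name: every protein-coding gene whose symbol begins with Psma, Psmb, Psmc, Psmd, Psme, Psmf or Psmg, without the immunoproteasome subunits Psmb8, Psmb9 and Psmb10. The rule found 47 genes among the 55401 gene IDs of the count table, and 46 of them were among the 19833 genes that had enough reads to be tested. The untested member, Psmb11, which encodes a catalytic subunit made in the thymus cortex, had 5 counts in double mutant 3 and 0 in every other library. RNA was sequenced from the aorta of 3 IL16-/-ApoE-/- samples (called double mutants here) and 3 ApoE-/- samples. Mice of both groups carried the ApoE mutation and were put on a high-fat diet for 24 weeks at an age of 8 weeks, so by their labels the groups differ in IL16, which encodes the cytokine interleukin 16. The sources used here do not give the sex and strain of the mice, the design of the mutant alleles or whether a sample is 1 animal or a pool, and p-values measure the spread between these samples.

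The proteasome is the protease that degrades most short-lived, damaged and ubiquitin-tagged proteins of the cytosol and nucleus. Its core particle is a barrel of alpha rings, which gate the entrance, around beta rings, which hold the active sites. A regulatory particle at the end of the barrel recognises ubiquitin chains, removes them and unfolds the substrate with a ring of ATPases. Other caps open the gate without handling ubiquitin. Because the particles are built in fixed proportions, their subunit genes are commonly expressed together, in part through the transcription factor Nfe2l1.

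Some facts about the libraries bear on every value below. Totals were 42861980 to 47208779 counts in the double mutants and 65730552 to 85568269 counts in ApoE-/-. A count of 0 in a library allows 3 counts, or at most 0.0698 CPM (counts per library size in the usual units, scaled with edgeR's TMM factors) in a double mutant library and 0.0430 CPM in an ApoE-/- library, for counting error only. The biological coefficient of variation over all genes was 0.209 in the double mutants and 0.590 in ApoE-/-. ApoE-/- 1 stood apart in its sex-linked genes. Xist, which silences an X chromosome in females, was at 474 CPM there and at 0.497 to 6.21 CPM in the other 5, and Ddx3y, a gene on the Y, was at 0.143 CPM there and at 70.1 to 136 CPM in the other 5. Il16 itself was at 7.93, 12.1 and 12.2 CPM in the double mutants, against 28.3, 28.7 and 15.1 CPM in ApoE-/- (edgeR log2 fold change -1.16, adjusted p = 0.163). Apoe was at 137 to 183 CPM in the double mutants and 20.9 to 45.0 CPM in ApoE-/- (edgeR log2 fold change 2.34, adjusted p = 0.0369). Counts over a whole gene do not check an allele whose deleted part is not stated. Markers of smooth muscle, the main cell type of the aortic wall, summed to 8674 to 9829 CPM in the double mutants and to 4340, 19156 and 27576 CPM in ApoE-/- 1 to 3. All 6 kidney tubule markers were called higher in the double mutants, with sums of 481 to 534 CPM there and at most 0.0477 CPM in ApoE-/-. Of 6 cardiac muscle markers 1 was called higher, and of 6 skeletal muscle and 6 endothelial markers 0. In each of these lists all 6 lay higher in every double mutant than in any ApoE-/- library, as did 14.9% of tested genes. Cardiac markers summed to 198 to 395 CPM in the double mutants and 26.3 to 80.2 CPM in ApoE-/-. Skeletal muscle markers summed to 16.1 to 268 and 2.88 to 8.54 CPM in the same order, and endothelial markers to 1144 to 1190 and 562 to 990 CPM. Macrophage markers summed to 4239 to 6034 CPM in the double mutants and 4375, 2189 and 342 CPM in ApoE-/- 1 to 3, and adipocyte markers to 5664 to 6162 CPM in the double mutants and 6732, 1402 and 837 CPM in ApoE-/- 1 to 3. Lyz2 made up most of the macrophage sum in every library. In ApoE-/- 1 the macrophage markers Adgre1, Csf1r, Itgam and Cd14 lay above all double mutants, and Cd68 and Tyrobp lay below all of them. The part of these cell types, of sex and of depth in the results below was not tested, and in bulk tissue fewer cells of a type and less RNA per cell cannot be told apart.

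No proteasome gene passed an adjusted p of 0.05 between the groups in edgeR's quasi-likelihood test, in either direction, among 46 tested. Over all tested genes the same test called 1.14% higher and 0.0605% lower in the double mutants, 1.2% in all. At an unadjusted p under 0.05, 3 members were higher (Psmd8, Psmb5 and Psme2b) and 1 was lower (Psme4), where 15.9% of all tested genes passed that limit. DESeq2 and limma-voom, fitted to the same libraries, also called 0 of the 46. Of the 19833 tested genes, DESeq2 called 1235 higher and 462 lower, and limma-voom called 362 higher and 20 lower. In 8 members the 3 double mutant libraries all lay above the 3 ApoE-/- libraries (Psmb3, Psmb5, Psmc2, Psmc3, Psmd6, Psmd8, Psme2b and Psmg1), which 14.9% of all tested genes did. In 3 members they all lay below (Psmc6, Psmd5 and Psme4), which 11.5% of all tested genes did. The fitted log2 fold change was positive for 34 members and negative for 12, with a median of 0.15 and a range of -0.32 to 1.07. Over all tested genes it was positive for 9212 and negative for 10621, with a median of -0.05.

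Summed over the 46 tested members, RNA was at 2951, 3000.4 and 2901 CPM in double mutants 1 to 3, values here and below being in the order of the library numbers, and at 3174, 2360.0 and 2474 CPM in ApoE-/- 1 to 3. The sum includes Psmc3ip, which encodes no part of the proteasome and reached at most 4.01 CPM. The double mutants lay close together, and the ApoE-/- libraries lay on both sides of them. Among the 42 members with a mean of at least 10 CPM, the median coefficient of variation between libraries was 6.00% in the double mutants and 19.4% in ApoE-/-, and it was larger in ApoE-/- for 36 of them. Over all 10250 genes at that level the medians were 6.58% in the double mutants and 24.4% in ApoE-/-, and it was larger in ApoE-/- for 9383. ApoE-/- 1 was the highest of the ApoE-/- libraries for 33 of the 42 members, where it was so for 3904 of the 10250 genes, and it was the highest of all 6 libraries for 19 of the 42, where it was so for 2490 of the 10250.

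**Figure D1:**
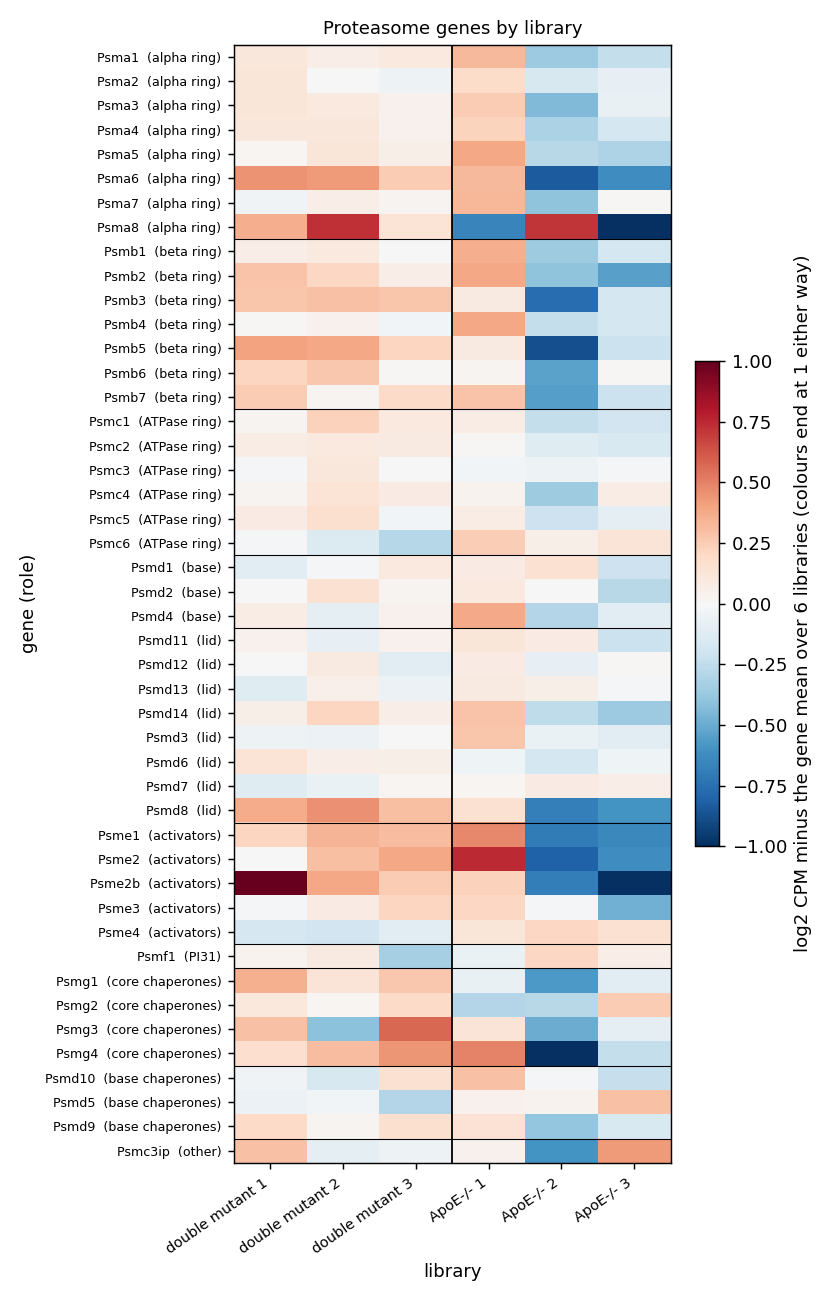
Each row is a proteasome gene, grouped by its role, and each column a library, with the double mutants on the left and ApoE-/- on the right. Colour gives log2 CPM minus the gene's mean over the 6 libraries, with colours ending at 1 either way; ApoE-/- 1 has the highest value of the ApoE-/- columns in 33 of the 42 genes with a mean of at least 10 CPM.

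The calls depended on ApoE-/- 1. With that library left out, edgeR called 11 members higher and 1 lower, where it called 13.1% of 20177 genes higher and 12.8% lower. The members called higher were Psma1 and Psma6 of the alpha ring, Psmb2, Psmb3, Psmb5 and Psmb7 of the beta ring, Psmd8 and Psmd14 of the lid, and the PA28 genes Psme1, Psme2 and Psme2b, and the member called lower was Psme4. The median log2 fold change of the members was then 0.27. All 6 libraries were also kept in limma-voom, with each weighted by how closely its values followed its group's fit. No separate measure of library quality entered these weights. Then 5 members were called higher (Psma6, Psmb3, Psmb5, Psmd8 and Psme1) and 0 lower, with 9.39% of all tested genes called higher and 7.49% lower. ApoE-/- 1 is also the library with the Xist and Ddx3y levels of a female, and its sex, its cell type markers and its proteasome values cannot be told apart.

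**Figure D2:**
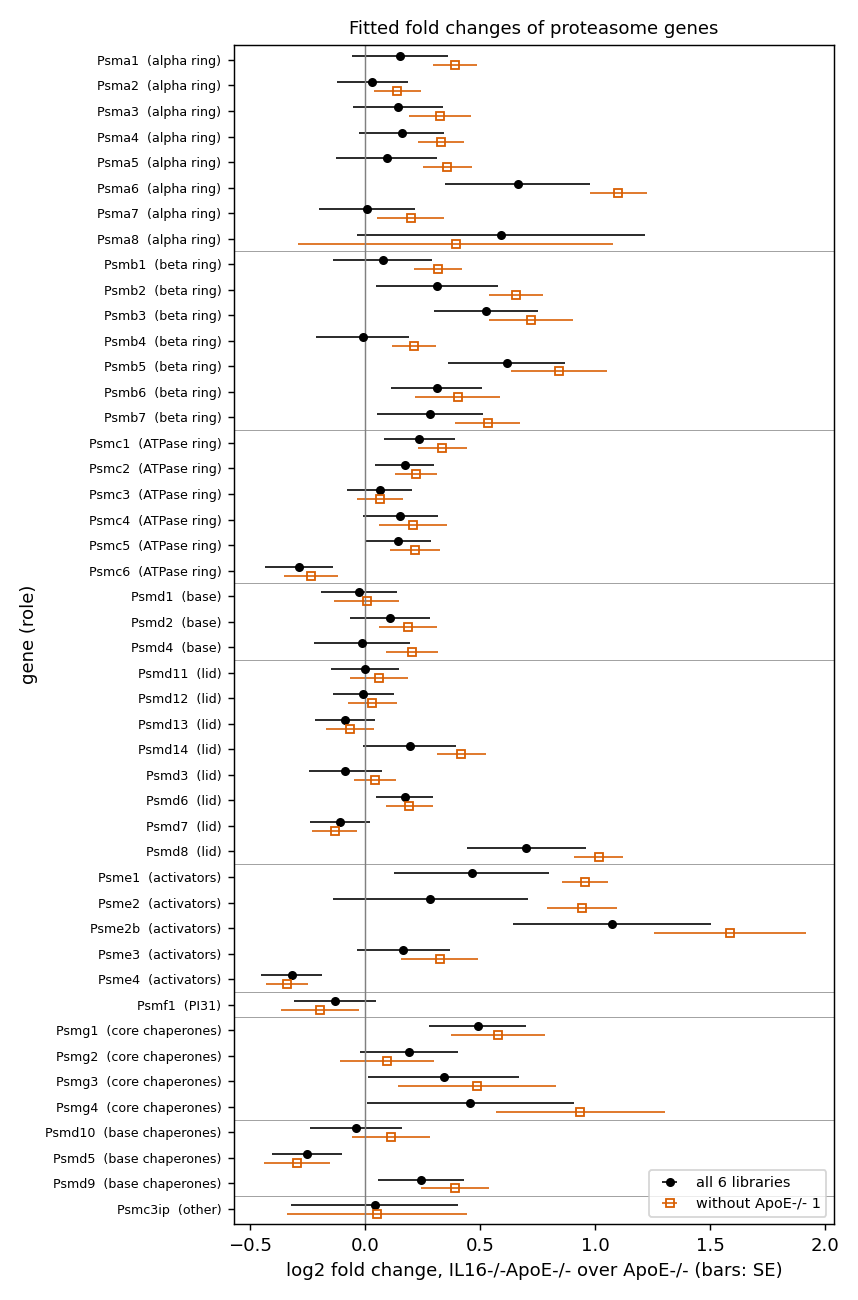
Points give each tested member's log2 fold change (double mutant over ApoE-/-) with its standard error, grouped by role, from all 6 libraries and from the fit without ApoE-/- 1. The fitted values run from -0.32 for Psme4 to 1.07 for Psme2b with all libraries, and 34 of 46 lie above 0. Of all 19833 tested genes, which are not drawn, 9212 lie above 0.

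The start regions of 4 members are printed to show letters from both ends of the family's range, though no member passed the test. Psmd8 and Psmb5, with higher levels in the double mutants, had unadjusted edgeR p-values of 0.0325 and 0.0478, and Psme4 and Psmc6, with lower levels, had 0.0499 and 0.0956. Psme2b, with an unadjusted p of 0.0442, was passed over because its counts may be shared with Psme2. Each sequence runs 5′ to 3′ on the gene's strand from 250 bases before to 50 bases after the RefSeq start (build GRCm38.p6). Capitals mark matches on either strand to CGGAAG, a core that ETS factors bind, and to TGACNNNGC, a core of the antioxidant response element bound by Nfe2l1 and Nfe2l2 with small Maf proteins.
Psmd8, chr7:29180624-29180923, minus strand: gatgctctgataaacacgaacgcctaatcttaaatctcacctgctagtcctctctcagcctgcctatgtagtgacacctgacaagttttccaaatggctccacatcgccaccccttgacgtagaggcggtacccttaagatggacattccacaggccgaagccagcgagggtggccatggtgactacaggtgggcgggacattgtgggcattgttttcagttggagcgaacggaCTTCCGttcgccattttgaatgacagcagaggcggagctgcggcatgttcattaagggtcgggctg
Psmb5, chr14:54617946-54618245, minus strand: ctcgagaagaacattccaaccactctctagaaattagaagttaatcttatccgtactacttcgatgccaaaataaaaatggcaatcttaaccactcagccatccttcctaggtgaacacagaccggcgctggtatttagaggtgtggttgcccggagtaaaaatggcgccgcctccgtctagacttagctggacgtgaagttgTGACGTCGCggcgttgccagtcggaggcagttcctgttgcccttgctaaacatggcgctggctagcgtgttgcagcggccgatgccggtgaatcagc
Psmc6, chr14:45329574-45329873, plus strand: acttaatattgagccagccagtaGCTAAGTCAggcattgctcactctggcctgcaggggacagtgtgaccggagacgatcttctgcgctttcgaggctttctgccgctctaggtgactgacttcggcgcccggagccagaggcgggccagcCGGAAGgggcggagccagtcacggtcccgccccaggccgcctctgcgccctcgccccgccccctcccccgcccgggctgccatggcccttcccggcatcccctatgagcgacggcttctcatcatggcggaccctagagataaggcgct
Psme4, chr11:30771525-30771824, plus strand: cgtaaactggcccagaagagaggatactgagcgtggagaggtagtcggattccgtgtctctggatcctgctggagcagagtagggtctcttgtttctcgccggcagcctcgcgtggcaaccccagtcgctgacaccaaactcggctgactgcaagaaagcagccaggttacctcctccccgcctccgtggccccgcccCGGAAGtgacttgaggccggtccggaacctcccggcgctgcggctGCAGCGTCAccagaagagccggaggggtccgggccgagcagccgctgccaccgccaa
The Psmd8 window held CGGAAG on the opposite strand, from position -16 relative to the start, and no TGACNNNGC. The Psmb5 window held TGACNNNGC from position -47 and no CGGAAG. The windows of Psmc6 and Psme4 held both, with TGACNNNGC on the opposite strand.

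RefSeq windows were matched for 39 of the 47 genes, 42 windows in all. CGGAAG was in 24 of the 42 windows (57.1%), against 16.9% of 32851 mouse promoters and 26.6% of 15408 promoters of tested coding genes. It was in the windows of 6 of 6 lid genes and 3 of 3 base non-ATPase genes, and in 2 of 7 alpha ring genes. TGACNNNGC was in 6 windows (14.3%), those of Psmb5, Psmb6, Psmc6, Psmd9, Psmd12 and Psme4, against 12.4% of all promoters and 14.0% of those of tested coding genes. CCAAT was in 33.3% of the members' windows, against 37.4% of all promoters, and TGACGTCA in 0 of the 42, against 1.79% of all promoters. All 4 motifs were searched on both strands, and no matches of different motifs overlapped in a member's window. A match describes the letters and says nothing of binding in the aorta.

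In the alpha ring, whose subunits form the gate of the core particle, all 8 fitted log2 fold changes were positive, with a median of 0.15, and 0 passed the test. With the trend on transcript length removed (given further on), the median of the alpha ring was 0.02. Psma6 had the smallest p of the ring. It was at 93.8, 92.7 and 82.0 CPM in double mutants 1 to 3, against 86.04, 38.6 and 44.8 CPM in ApoE-/- 1 to 3. ApoE-/- 1 lay among the double mutants and the other ApoE-/- libraries well below them (log2 fold change 0.66, SE 0.32, adjusted p = 0.362, edgeR), and without ApoE-/- 1 the log2 fold change was 1.10. Psma4, the alpha subunit with the highest level per transcript length, was at 108, 108 and 103 CPM in double mutants 1 to 3 and at 117, 79.9 and 88.5 CPM in ApoE-/- 1 to 3. Its groups overlapped (log2 fold change 0.16, SE 0.19, adjusted p = 0.689). This value was 0.33 without ApoE-/- 1 and 0.05 without ApoE-/- 2. The other subunits made in all cells, Psma1, Psma2, Psma3, Psma5 and Psma7, had log2 fold changes of 0.01 to 0.15. Psma8, the testis form of Psma7, was at 0.77 to 1.15 CPM in the double mutants and 0.29 to 1.15 CPM in ApoE-/-.

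The beta ring holds the 3 kinds of active site: Psmb6 encodes the caspase-like, Psmb7 the trypsin-like and Psmb5 the chymotrypsin-like subunit. The median log2 fold change of its 7 tested genes was 0.31, 6 were positive, and 0 passed the test. With the trend on transcript length removed, the median of the beta ring was 0.03. Psmb5 was at 61.6, 61.0 and 54.4 CPM in double mutants 1 to 3, against 49.8, 25.4 and 40.3 CPM in ApoE-/- 1 to 3. The groups did not overlap, and ApoE-/- 1 came closest to the double mutants (log2 fold change 0.62, SE 0.25, adjusted p = 0.310, edgeR). Without ApoE-/- 1 the log2 fold change was 0.84 (adjusted p = 0.0336), and without ApoE-/- 2 it was 0.39. Psmb6 was at 95.5, 99.0 and 82.7 CPM in double mutants 1 to 3, and at 83.6, 56.8 and 82.9 CPM in ApoE-/- 1 to 3. Here a single library, ApoE-/- 2, lay low and the groups overlapped (log2 fold change 0.31, SE 0.20, adjusted p = 0.471), and without that library the log2 fold change was 0.16. Psmb7 had a log2 fold change of 0.28 with overlapping groups. Among the non-catalytic subunits, Psmb3 was at 64.1 to 64.9 CPM in the double mutants and 31.2 to 56.3 CPM in ApoE-/- without overlap (log2 fold change 0.52, SE 0.23, adjusted p = 0.325), Psmb2 had a log2 fold change of 0.31, and Psmb1 and Psmb4 had 0.08 and -0.01. Psmb2, Psmb3, Psmb5 and Psmb7 were the 4 beta genes called higher without ApoE-/- 1.

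In the ATPase ring, which unfolds substrates, 5 of 6 log2 fold changes were positive, with a median of 0.15, and 0 passed the test. The median of the ATPase ring was -0.02 with the trend on transcript length removed. Before that removal, Psmc6 went against its ring. It was at 84.7, 77.6 and 70.1 CPM in double mutants 1 to 3, against 101, 89.0 and 93.2 CPM in ApoE-/- 1 to 3. All double mutants lay below all ApoE-/- libraries, though the gap between the nearest of them was small (log2 fold change -0.29, SE 0.15, adjusted p = 0.390, edgeR). Psmc3 was the steadiest of the family in ApoE-/-, at 116, 114 and 117 CPM in ApoE-/- 1 to 3, a coefficient of variation of 1.27%. In double mutants 1, 2 and 3 it was at 117, 127 and 118 CPM, and its groups, though apart, differed by a log2 fold change of 0.06 (SE 0.14, adjusted p = 0.842). Psmc1, Psmc2, Psmc4 and Psmc5 had log2 fold changes of 0.14 to 0.24.

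The members that encode non-ATPase subunits of the base are the scaffolds Psmd1 and Psmd2 and the ubiquitin receptor Psmd4. Psmd2 was at 137, 152 and 140 CPM in double mutants 1 to 3, and at 147, 138 and 113 CPM in ApoE-/- 1 to 3. Psmd4 was at 94.1, 83.3 and 91.7 CPM in double mutants 1 to 3, and at 116, 72.9 and 82.9 CPM in ApoE-/- 1 to 3. The groups overlapped for both, and the log2 fold changes of the 3 genes lay between -0.02 and 0.11, with that of Psmd4 changing sign between analyses and that of Psmd2 at 0.0045 without ApoE-/- 3 and 0.19 without ApoE-/- 1.

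The lid removes ubiquitin chains through Psmd14 and otherwise serves as a frame. Its 8 members had 4 positive and 4 negative log2 fold changes with a median of -0.0036, and 0 passed the test. Psmd8 stood apart from the rest of the lid in the size of its value. It was at 161, 170.0 and 153 CPM in double mutants 1 to 3, against 138, 77.3 and 81.9 CPM in ApoE-/- 1 to 3. The groups did not overlap, with ApoE-/- 1 nearest to the double mutants (log2 fold change 0.70, SE 0.26, adjusted p = 0.273, edgeR). Without ApoE-/- 1 its log2 fold change was 1.02 (SE 0.11, adjusted p = 0.00301), and its adjusted p ranged from 0.00258 to 0.618 over the 18 alternative analyses, of which 3 called it. Psmd6 was at 56.3, 53.4 and 53.1 CPM in double mutants 1 to 3 and at 49.5, 45.3 and 49.6 CPM in ApoE-/- 1 to 3, apart but close (log2 fold change 0.17, SE 0.12, adjusted p = 0.517). Psmd14 had a log2 fold change of 0.20 with overlapping groups. Psmd3, Psmd7, Psmd11, Psmd12 and Psmd13 lay between -0.11 and 0.00.

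Counted by particle, the core genes summed to 1076, 1067 and 1013 CPM in double mutants 1 to 3, against 1155, 712 and 844 CPM in ApoE-/- 1 to 3. The 17 members of the regulatory particle summed to 1425, 1484 and 1425 CPM in double mutants 1 to 3, against 1509, 1284 and 1267 CPM in ApoE-/- 1 to 3. Adrm1 and Sem1, whose symbols lack the prefixes, are not in these sums. The core varied more between the ApoE-/- libraries than the regulatory particle did. The ratio of core to regulatory sums was 0.755, 0.719 and 0.711 in double mutants 1 to 3 and 0.765, 0.555 and 0.666 in ApoE-/- 1 to 3, so ApoE-/- 1 lay above every double mutant and the other ApoE-/- libraries below them. No test was made on this ratio. Core genes had a median length of 1160 bases, against 1591 bases for the regulatory particle. Their median log2 fold changes were 0.16 and 0.06, and 0.03 and -0.01 with the trend on length removed. Inside ApoE-/-, Spearman's rho between length and log2 of ApoE-/- 1 over the mean of ApoE-/- 2 and 3 was -0.56 over the members. The part of length in the ratio was not tested.

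The 5 activator genes had values in both directions, with 1 unadjusted p under 0.05 each way and none past the adjusted threshold. Psme1 and Psme2 encode the subunits of the cytosolic PA28 cap, which interferon gamma induces and which serves antigen processing. Psme1 was at 91.5, 99.6 and 97.7 CPM in double mutants 1 to 3, against 110, 48.7 and 50.5 CPM in ApoE-/- 1 to 3. ApoE-/- 1 was above all double mutants and the other ApoE-/- libraries were far below them (log2 fold change 0.46, SE 0.34, adjusted p = 0.523, edgeR). Its log2 fold change was 0.96 (adjusted p = 0.00300) without ApoE-/- 1, 0.27 without ApoE-/- 2 and 0.28 without ApoE-/- 3. Psme2 followed the same order, with ApoE-/- 1 at 83.8 CPM above the double mutants at 49.7 to 65.1 CPM and ApoE-/- 2 and 3 at 28.5 and 32.4 CPM. Psme2b, a gene with a single transcript of 837 bases that matches Psme2 at 99.4% identity, was at 38.1, 23.3 and 21.2 CPM in double mutants 1 to 3, against 20.9, 11.0 and 7.31 CPM in ApoE-/- 1 to 3. Its log2 fold change of 1.07 was the highest of the family (SE 0.43, adjusted p = 0.302), but double mutant 3 and ApoE-/- 1 differed by little, and reads of Psme2 and Psme2b may have been split between them. Psme3, the nuclear PA28 subunit, had a log2 fold change of 0.17.

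Psme4 encodes PA200, a single-chain cap of the core that is known for its role in histone degradation in the testis and in DNA repair. It was at 82.2, 81.0 and 85.3 CPM in double mutants 1 to 3, against 100.3, 107 and 103 CPM in ApoE-/- 1 to 3. Both groups were tight and did not overlap (log2 fold change -0.32, SE 0.13, adjusted p = 0.314, edgeR). It was the one member called lower without ApoE-/- 1 (log2 fold change -0.34, SE 0.09, adjusted p = 0.0429), where ApoE-/- 2 and 3 alone stand for that group. Psmf1, which encodes the inhibitor PI31, was at 20.1, 20.8 and 15.5 CPM in double mutants 1 to 3 and at 18.7, 22.5 and 20.5 CPM in ApoE-/- 1 to 3 (log2 fold change -0.13).

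The chaperones that build the particles without remaining in them were less abundant. The core chaperones Psmg1 to Psmg4 had 4 positive log2 fold changes with a median of 0.40, which was -0.08 with the trend on transcript length removed (given further on), where Psmg2, Psmg3 and Psmg4 were at -0.05, -0.10 and -0.38. The base chaperones Psmd5, Psmd9 and Psmd10 had a median of -0.04, with 0 called in either list. Psmg1 was at 14.4, 12.3 and 13.6 CPM in double mutants 1 to 3, against 10.7, 7.59 and 10.4 CPM in ApoE-/- 1 to 3, without overlap (log2 fold change 0.49, SE 0.21, adjusted p = 0.323, edgeR). Psmd5 was at 29.5, 30.1 and 25.1 CPM in double mutants 1 to 3, against 31.7, 31.5 and 37.7 CPM in ApoE-/- 1 to 3, with the double mutants all lower (log2 fold change -0.25, SE 0.15, adjusted p = 0.451). Psmd10, also known as gankyrin, was at 14.98, 13.7 and 17.03 CPM in double mutants 1 to 3 and at 18.8, 15.1 and 13.0 CPM in ApoE-/- 1 to 3, with overlap. Psmc3ip bears the prefix but encodes a meiotic recombination factor and no part of the proteasome. It was at 3.66, 2.79 and 2.89 CPM in double mutants 1 to 3 and at 3.08, 1.98 and 4.01 CPM in ApoE-/- 1 to 3.

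Levels of different genes were compared per kilobase of transcript. Psme1 was at 135 ± 5.99 CPM per kb in the double mutants and 98.1 ± 49.2 CPM per kb in ApoE-/- (SD, n = 3 each), the highest mean of the family over all 6 libraries. The high place of Psme1 depends on the length used, 711 bases, the median of transcripts of 681 to 1112 bases. Over all 6 libraries Psmb6 followed with 116 ± 10.7 CPM per kb in the double mutants and 93.3 ± 19.2 CPM per kb in ApoE-/-, then Psma4 with 91.1 ± 2.45 and 81.6 ± 16.5 CPM per kb in the same groups. Psmd8 was at 106 ± 5.74 CPM per kb in the double mutants, above Psma4 there, and at 64.9 ± 22.2 CPM per kb in ApoE-/-, below Psma4 and several other subunits. In ApoE-/- the levels of Psme1, Psmb6 and Psma4 did not differ beyond their spread, while in the double mutants the libraries' values of these genes did not overlap. The highest ATPase, Psmc3, was at 73.7 ± 3.58 CPM per kb in the double mutants and 70.5 ± 0.898 CPM per kb in ApoE-/-. Psme4, at 12.8 ± 0.338 CPM per kb in the double mutants and 15.9 ± 0.478 CPM per kb in ApoE-/-, lay below every core and regulatory subunit other than Psma8 and Psmb11. Assembly chaperones reached at most 14.5 ± 1.14 CPM per kb in the double mutants and 11.1 ± 2.06 CPM per kb in ApoE-/-, for Psmg1 and Psmd10 in that order. The low place of Psma2, at 24.9 CPM per kb in the double mutants and 24.3 CPM per kb in ApoE-/-, depends on the length of 2911 bases of its annotated transcript.

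**Figure D3:**
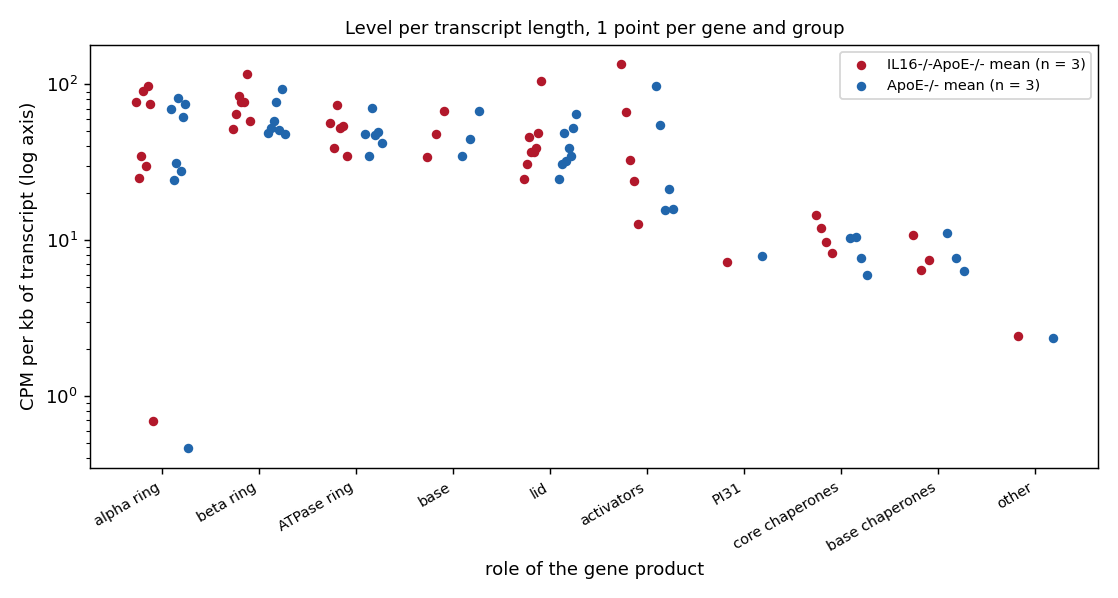
Each point is the mean level of a tested member (CPM per kb of transcript, log axis) over 3 libraries, in columns by role, with the double mutants left of ApoE-/-. The ring, base and lid genes lie above the chaperones and Psmf1 in both groups, apart from Psma8, the lowest point, at 0.693 CPM per kb in the double mutants and 0.460 CPM per kb in ApoE-/-.

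Log2 fold changes were lower for longer transcripts. Over the 46 tested members, Spearman's rho between the log2 fold change and transcript length was -0.66, and over 19805 tested genes it was -0.27, as a description in which all points share the same 6 libraries. Members were short, with a median length of 1370 bases against 2347 bases for all tested genes. The 11 members under 1000 bases had a median log2 fold change of 0.46, which was also 0.46 over the 3184 tested genes of that length. The 15 members of 1000 to 1500 bases had 0.14, against 0.12 over all tested genes of that length. The 8 members of 2500 bases or more had 0.00, against -0.17. With the trend on length removed from all genes, the members' median log2 fold change was -0.04, beside -0.06 for all tested genes. Then 20 of the 46 members were positive, and 8958 of all 19833 tested genes. Psmd8 was then at 0.61 (SE 0.20, adjusted p = 0.256), Psme2b at 0.68 and Psma6 at 0.34. Psmb5 was at 0.13, Psmb3 at 0.04 and Psmg1 at 0.14, against 0.62, 0.52 and 0.49 before the trend was removed, and Psme4 was at -0.13, against -0.32. Psmb6, Psma4 and Psme1 were below 0, at -0.15, -0.06 and -0.07. The same relation was present inside ApoE-/-: rho between length and log2 of ApoE-/- 1 over the mean of ApoE-/- 2 and 3 was -0.56 over the members and -0.19 over 18565 genes. Against ApoE-/- 2 and 3 alone the double mutants' ratio had a rho of -0.71 with length over the members, and against ApoE-/- 1 alone it had -0.16. What gave rise to the relation was not tested.

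**Figure D4:**
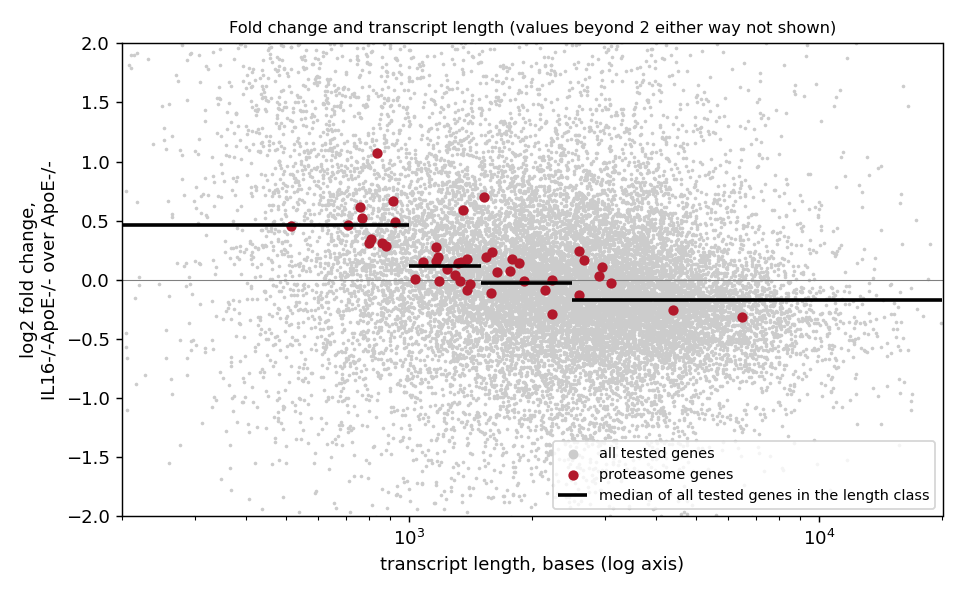
Each point is a tested gene, with transcript length (bases, log axis) across and log2 fold change (double mutant over ApoE-/-) up, proteasome members drawn over all tested genes; black lines are the medians of all tested genes by length class, and genes beyond the axes are not drawn. Short members lie higher, with a median of 0.46 under 1000 bases and 0.00 at 2500 bases or more, and the black lines at the same ends lie at 0.46 and -0.17.

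Of 7 subunits and assembly factors whose symbols lack the prefixes, 1 was called: Sem1, the small acidic subunit of the lid, which also serves the repair protein Brca2. It was at 55.3, 58.2 and 54.1 CPM in double mutants 1 to 3, against 19.7, 12.1 and 15.2 CPM in ApoE-/- 1 to 3. All double mutants lay far above all ApoE-/- libraries, and ApoE-/- 1 did not stand with the double mutants here (log2 fold change 1.84, SE 0.21, adjusted p = 0.0209, edgeR). It was called in 14 of 18 alternative analyses, with adjusted p-values from 2.58e-11 to 0.179, and it was not called when any 1 double mutant library was left out or with the replicate number as a block, settings under which 0 genes of the whole table were called. With the length trend removed its log2 fold change was 1.72. Pomp, the maturation factor of the core, was at 70.6, 73.0 and 78.1 CPM in double mutants 1 to 3, against 57.7, 31.1 and 46.6 CPM in ApoE-/- 1 to 3, without overlap (log2 fold change 0.71, SE 0.24, adjusted p = 0.233). Pomp was called in 3 of the 18 alternatives, among them the fit without ApoE-/- 1 (log2 fold change 0.93, adjusted p = 0.0184). The other 5 (Adrm1, Uchl5, Usp14, Ecpas and Akirin2) had log2 fold changes of -0.25 to 0.03.

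**Figure D5:**
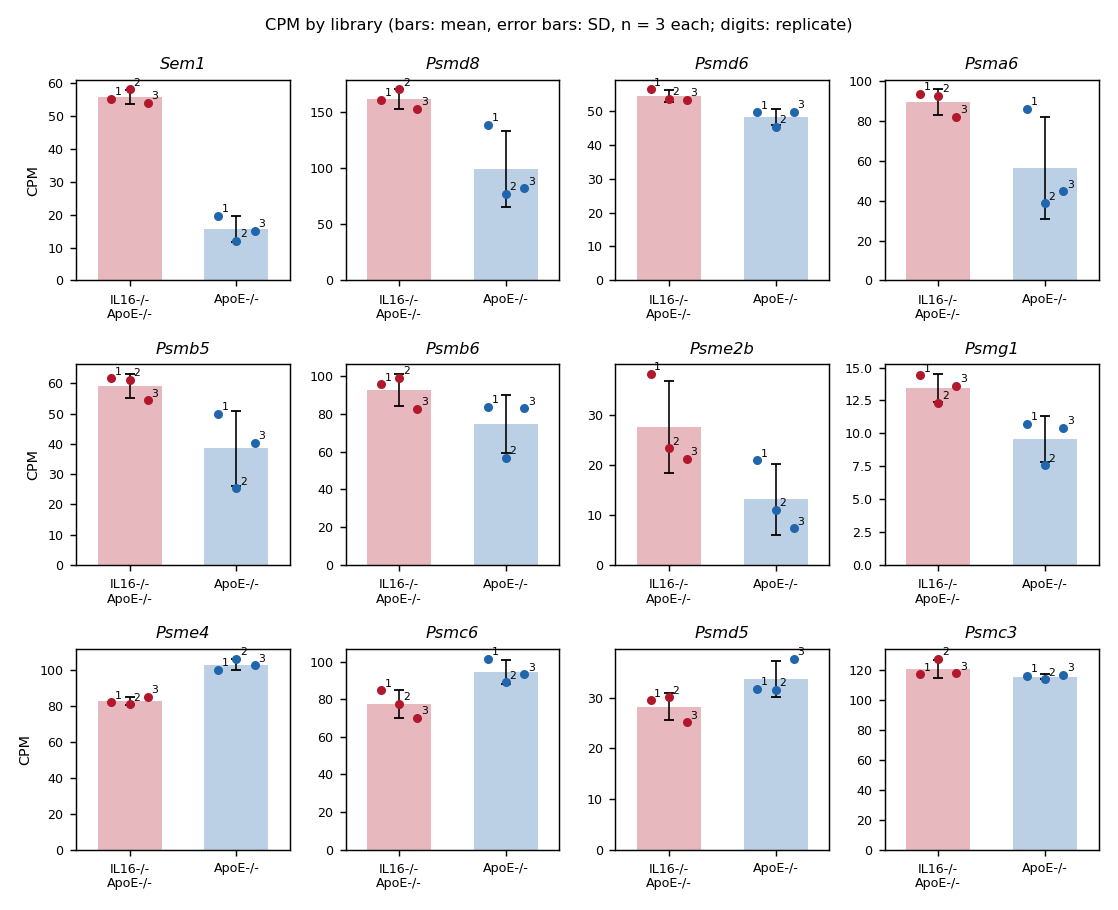
Panels show Sem1 and 11 members, with a point for each library's level (CPM, digits give the replicate), a bar for the group mean and an error bar for the SD (n = 3 each), the double mutants left of ApoE-/-. Sem1 is at 54.1 to 58.2 CPM in the double mutants and 12.1 to 19.7 CPM in ApoE-/-, Psmd8 is higher in the double mutants with ApoE-/- 1 nearest to them, and Psme4 is at 81.0 to 85.3 CPM in the double mutants and 100.3 to 107 CPM in ApoE-/-.

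The immunoproteasome genes, which replace the active beta subunits under interferon, were not called with all libraries. Psmb8 was at 42.4, 40.6 and 35.7 CPM in double mutants 1 to 3, and at 124, 34.7 and 11.4 CPM in ApoE-/- 1 to 3, so that ApoE-/- 1 was the highest library as for Psme1 and Psme2 (log2 fold change -0.52, adjusted p = 0.757, edgeR). The median log2 fold change of the 3 genes was -0.29 with all libraries and 0.78 without ApoE-/- 1, where Psmb9 (1.01, adjusted p = 0.0275) and Psmb10 (0.77, adjusted p = 0.0385) were called higher. Of 8 genes that regulate proteasome transcription, 0 were called and the median log2 fold change was -0.10. Their smallest p belonged to the small Maf gene Mafk, at 42.5, 36.3 and 44.6 CPM in double mutants 1 to 3 and at 41.5, 66.0 and 108 CPM in ApoE-/- 1 to 3 (log2 fold change -0.80, adjusted p = 0.321). Mafk was called lower in 3 of the 18 alternatives, among them the fit without ApoE-/- 1 (log2 fold change -1.08, adjusted p = 0.0186). The next smallest p was that of Nfe2l2, with a log2 fold change of 0.31. Nfe2l1 was at 329 to 336 CPM in the double mutants and 294 to 347 CPM in ApoE-/-.

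Among 6 genes for ubiquitin and its activating enzymes 0 were called, with a median log2 fold change of 0.19. The activating enzyme Uba6 had a log2 fold change of -0.33 (adjusted p = 0.399, edgeR). Of 13 genes for substrate shuttles and the p97 segregase 0 were called, with a median of 0.00, and Zfand2a (0.31) and Rad23b (0.24) had the smallest p-values. Of 5 genes for ligases and other proteins bound to the proteasome 0 were called, with Ube3a at -0.47 (adjusted p = 0.218, and 0.0470 without ApoE-/- 1) and Fbxo7 at 0.40 (adjusted p = 0.325).

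Some counts of members are uncertain because of shared sequence. Of the 46 tested members, 9 shared at least 300 bases at 95% identity or more with the transcript of another annotated gene, among them Psma5, Psmb3 and Psmc1 with processed copies of low count. Exons of 10 members overlap a gene on the opposite strand, and the strand setting of the counting is not given. The median log2 fold change over the 37 members without such a match was 0.15, the same as over all 46.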

How the data were processed

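Polyadenylated RNA of 6 aorta samples (3 IL16-/-ApoE-/- and 3 ApoE-/-) was made into strand-marking libraries, per the labels' protocols. The authors deposited raw read counts per gene, without normalization, as judged from whole numbers and unequal column totals. Per the submitters' processing notes, the tools included cutadapt, HISAT2 and StringTie. The build, annotation, counter and strand setting were not given in the sources used here. Symbols, types and lengths (median of basic transcripts) come from GENCODE M21, which matched 55141 of 55401 IDs.

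Genes were kept by filterByExpr (minimum count 10, minimum total 15), and groups were compared with edgeR 4.0.16 (TMM factors, quasi-likelihood test with robust moderation, Benjamini-Hochberg adjustment over 19833 genes, threshold 0.05) in R 4.3.3. CPM are TMM-scaled, and a standard error is the log2 fold change over the root of F. Alternatives included limma-voom 3.58.1 and DESeq2 1.42.0. The fit was tested on simulated data drawn with the same spread in both groups. That test does not cover the unequal spread of these groups. The trend on length was a loess curve of span 0.3. Sequence shared between transcripts was found with blastn (BLAST+ 2.17.0). Promoter sequences are from RefSeq. The members and lists were chosen with earlier results of these data known. Named are, in each role list, the member with the smallest p, the member with the highest level per kb, and any member against its list whose groups are apart. Members named beyond this rule, such as Psmb3 and Psme2, were chosen after their values were seen. For 1 of the partner genes that the rule would name, the values are not reported here.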

Additional observations from a re-analysis of the deposited data

How the results depend on the processing

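Of 324 log2 fold changes (18 named members, each under 18 alternatives), 288 kept their direction and their side of the threshold, 16 kept the direction and passed the threshold, and 20 changed sign. Members called higher numbered 0 with all libraries, 5 with limma-voom sample weights, 0 to 11 with 1 library left out and 11 in limma-voom without ApoE-/- 1, an alternative chosen after seeing the data. Members called lower numbered 0, 0 to 1 with 1 library left out and 1 in limma-voom without ApoE-/- 1. Genes called higher over the whole table numbered 226, against 1235 with DESeq2, 362 with limma-voom, 1862 with sample weights, 141 with the length trend removed, 0 to 2651 with 1 library left out and 2818 in limma-voom without ApoE-/- 1. Genes called lower numbered 12, against 462, 20, 1486 and 21 in the first 4 of these, 0 to 2580 with 1 library left out and 2592 in limma-voom without ApoE-/- 1. The 0 calls arose when any 1 double mutant library was left out; without ApoE-/- 2 the counts were 101 higher and 7 lower, and without ApoE-/- 3, 19 were lower. The cause was not tested.

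No paired origin of same-numbered samples is labelled. Same-numbered deviations from the group means correlated at -0.04, -0.03 and -0.01. With 3 libraries a group and a wider spread in ApoE-/-, such values cannot exclude a shared origin or preparation. With the replicate block, 0 genes were called higher and 0 lower in the whole table, and 0 members were called. Sem1 had an adjusted p of 0.179 with the replicate block and of 0.150 to 0.177 with 1 double mutant library left out.

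Sign changes followed the length correction for Psma4 (-0.061), Psmb6 (-0.15), Psmc3 (-0.030), Psmc3ip (-0.14) and Psme1 (-0.066). With 1 library left out, Psmc3ip ranged from -0.18 to 0.30, Psmd10 from -0.16 to 0.11 and Psmd4 from -0.14 to 0.20. Psmd10 was at 0.016 with sample weights and 0.11 in limma-voom without ApoE-/- 1. Psmd4 was at 0.015 with upper-quartile factors, 0.0060 with library totals, 0.0094 with a filter of 1 CPM in 3 libraries, 0.020 with limma-voom, 0.21 with sample weights, 0.014 with the replicate block and 0.20 in limma-voom without ApoE-/- 1. The members' median log2 fold change was 0.15, 0.06 to 0.27 with 1 library left out, -0.04 with the length trend removed and 0.15 both without Psmc3ip and Psma8 and over the 37 members with no near-identical copy, sets chosen after seeing the data. The median of all genes ranged from -0.12 to 0.03. With 3 libraries a group, of which the ApoE-/- libraries differ widely, a member's log2 fold change had a standard error of 0.12 to 0.63, which limits the differences that could be called.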
